A study of Mus musculus with 12 samples.

Results

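Galectins, S100 proteins and annexins were followed through muscle injury in sorted satellite cells (SCs), the stem cells of skeletal muscle, as 10 genes: Lgals1, Lgals3, S100a4, S100a6, S100a10, S100a11, Anxa1, Anxa2, Anxa5 and Anxa6. The 10 genes were taken by symbol from 13775 genes in the expression table, and all 10 passed the filter on low values that left 4956 genes. They were chosen by the level of Lgals1, which is much higher in injured than in uninjured SCs, so the levels before and after injury are given here as a description, with no test. The comparison of genotypes was not used in that choice and was tested.

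Galectins are small lectins that bind galactose-containing sugars inside and outside the cell. S100 proteins are small calcium sensors that mostly work as dimers, and annexins are proteins that bind acidic membrane lipids when calcium enters. Annexins and S100 proteins gather at tears in the membrane of muscle fibres and take part in their resealing. ANXA2 forms a tetramer with S100A10 that binds plasminogen at the cell surface, ANXA1 pairs with S100A11, and LGALS1 is known for its role in the fusion and differentiation of myoblasts.

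SCs were sorted by flow cytometry as CD45-, Sca1-, CD11b-, CD31-, CD34+ and α7-integrin+ cells from C57BL/6J mice at 2 months of age, with about 800 cells for each library. FoxM1fl/fl mice carry loxP-flanked FoxM1 alleles without Cre and were the controls. FoxM1-cKO mice carry the same alleles together with the Pax7Cre/+ driver, which deletes FoxM1, a forkhead transcription factor of the cell cycle, in the Pax7 lineage and so from muscle development onward. Muscles were either left without BaCl2 injury, the group labelled quiescent (uninjured), or were taken at 48 h after BaCl2 injection, the group labelled activated (injured), with 3 libraries for each of the 4 combinations. The methods of the study speak of biological replicates for its experiments in general and do not say which libraries came from which mice, so p-values measure the spread between these libraries, whatever its source.

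The libraries differed in ways that bear on all 10 genes. Depth, recovered from the steps of the low FPKM values, ran from 170701 to 642010 reads in the 6 uninjured libraries and from 907562 to 2854509 reads in the 6 injured ones. FPKM is the number of fragments scaled by transcript length and by the mapped fragments of the library, and all 20 values of the 10 genes that stood above 0 and under 20 reads were whole numbers of reads. FoxM1fl/fl uninjured 1, FoxM1-cKO uninjured 2 and FoxM1fl/fl injured 1 followed a weighted sum of the other 2 libraries of their group, with 92.9% or more of the genes found in a single one of those 2 (at least 20 FPKM) also present. In these groups the 3 libraries are not 3 free measurements. The spread behind the p-values may thus be too small, and counts of libraries without overlap carry the same limit. Foxm1 was listed at 5.48 to 8.95 FPKM in the FoxM1fl/fl libraries before injury against 0 in FoxM1-cKO, and at 29.4 to 42.0 FPKM against 0.832 to 3.48 FPKM after injury. Of its 4 values between 0 and 20 reads, 2 were not whole numbers of reads at the longest annotated transcript, so it was not used to check the labels. Of 14 SC markers, 13 were listed, with 1 to 5 above 0 in an uninjured library and 5 to 9 in an injured one. They summed to 48.9 to 181 FPKM in FoxM1fl/fl and 643 to 1310 FPKM in FoxM1-cKO uninjured libraries, and to 19.6 to 873 FPKM and 53.3 to 163 FPKM after injury. Single marker genes named here and below were chosen after their values were seen. Sdc4 stood above 0 in 11 of 12 libraries, Cd34 in 6 of 12, and Itga7, which encodes the α7-integrin used in the sort, in 2 of 12 and in no uninjured one. Myofibre markers summed to 4936 to 54691 FPKM in uninjured libraries and to 262 to 1186 FPKM in injured ones.

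The 10 genes together summed to more in every injured library than in any uninjured one. Their summed level was 554, 259 and 2516 FPKM in FoxM1fl/fl uninjured SCs and 705, 572 and 493 FPKM in FoxM1-cKO uninjured SCs. After injury it was 4612, 3804 and 6527 FPKM in FoxM1fl/fl and 8844, 5744 and 5016 FPKM in FoxM1-cKO SCs. Most of that sum after injury was Anxa2 and Lgals1 in every library but FoxM1-cKO injured 3. All 10 genes had reads in every injured library, against 3 to 6 of them in an uninjured library. Detection differed for all genes, with 4462 to 7577 of 13775 above 0 in an injured library and 1178 to 3423 in an uninjured one. The 4 genes with no read before injury in FoxM1fl/fl, as in FoxM1-cKO, stand beside 55.5% and 62.1% of all genes tested. In bulk RNA a lower level cannot be told apart from fewer cells of a type that makes the transcript, and depth was lower in every uninjured library than in any injured one. Reads come from amplified material without molecular identifiers, so limits and intervals given below cover counting error only.

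**Figure D1:**
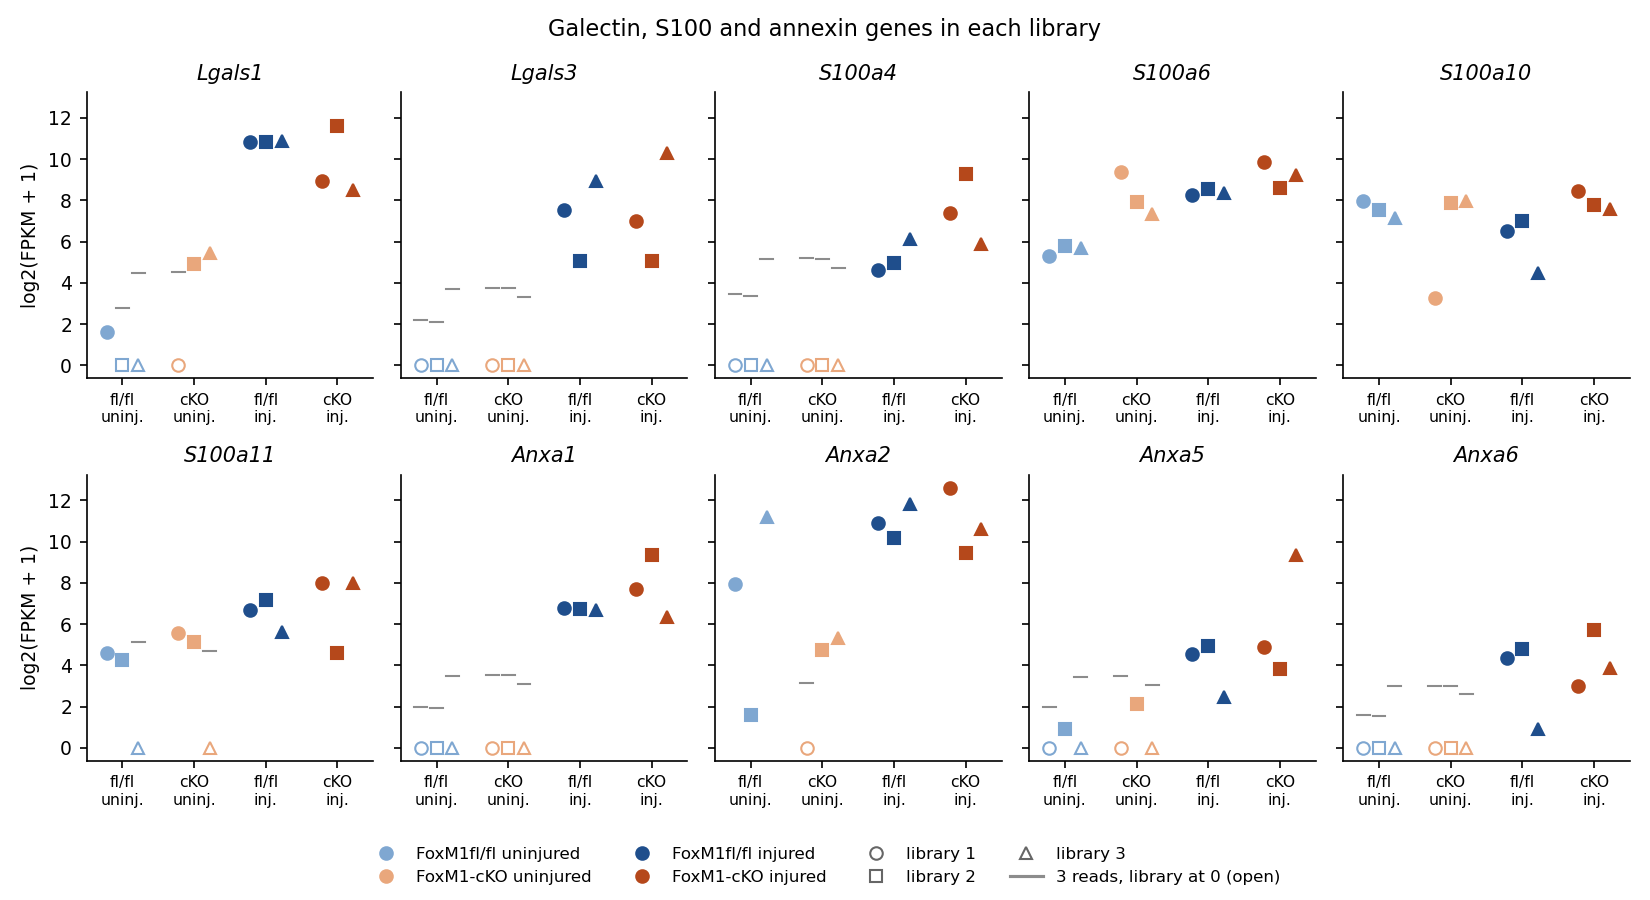
Level of each of the 10 genes in the 12 libraries as log2(FPKM + 1), by group (uninj., uninjured; inj., injured). Circles, squares and triangles are libraries 1, 2 and 3, open symbols are libraries with no read, and the grey bar above an open symbol marks the level that 3 reads would give there. Lgals3, S100a4, Anxa1 and Anxa6 were at 0 in all 6 uninjured libraries and above 0 in all 6 injured ones.

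In FoxM1fl/fl SCs, 8 of the 10 genes stood higher in all 3 injured libraries than in all 3 uninjured ones, against a background of 33.2% of all 4956 genes tested. S100a10 stood lower in all 3, against 2.2% of all genes, and Anxa2 overlapped. In FoxM1-cKO SCs, 7 of the 10 genes stood higher in all 3 injured libraries, against a background of 44.8%, and S100a6, S100a10 and S100a11 overlapped. None stood lower in all 3, against 1.41% of all genes. Both counts of higher genes include Lgals1, whose rise on injury led to the choice of the genes. They also include Lgals3, S100a4, Anxa1 and Anxa6, which had no uninjured read and so passed the filter through injured libraries alone. Anxa5 likewise needed injured libraries to pass it. Neither count can therefore be read as an excess over its background. After median-ratio scaling, which rests on 154 genes, the count in FoxM1fl/fl SCs was 5, against 30.0% of all genes so scaled, and S100a6, S100a11 and Anxa5 overlapped as well. After quantile normalization Anxa5 overlapped in FoxM1-cKO SCs, which left 6 genes, against 38.2% of all genes.

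Lgals1 encodes galectin-1, the more abundant of the 2 galectins in 5 of 6 injured libraries. Before injury the FoxM1fl/fl libraries held 1 Lgals1 read in all (2.08, 0 and 0 FPKM), and the FoxM1-cKO libraries held 12 reads (0, 28.9 and 42.0 FPKM). Injured FoxM1fl/fl SCs stood at 1829, 1797 and 1873 FPKM and injured FoxM1-cKO SCs at 487, 3056 and 365 FPKM. Every injured library was thus above every uninjured one, and in injured SCs the FoxM1fl/fl values lay within the range of the FoxM1-cKO values. In FoxM1fl/fl SCs the ratio of injured to uninjured reads over depth was 2073, with a 95% counting interval of 372 to 81914. In FoxM1-cKO SCs the ratio of the mean levels was 55.1 (1303 ± 1519.7 FPKM against 23.6 ± 21.5 FPKM, SD, n = 3). The order of the group medians ran from injured FoxM1fl/fl to injured FoxM1-cKO, uninjured FoxM1-cKO and uninjured FoxM1fl/fl, and only the step between the injured and the uninjured groups was without overlap.

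Lgals3 encodes galectin-3, a galectin with a collagen-like tail that macrophages make in large amounts. No Lgals3 read was found in any uninjured library. The levels after injury were 183, 31.8 and 481 FPKM in FoxM1fl/fl and 124, 32.5 and 1252 FPKM in FoxM1-cKO SCs. Lgals3 was therefore at least 155-fold higher in injured than in uninjured FoxM1fl/fl SCs and at least 129-fold higher in FoxM1-cKO SCs, taking 3 reads over the uninjured group as the floor. Within each genotype the highest and lowest injured library differed by 15.1-fold and 38.5-fold, and the genotypes overlapped.

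Among the S100 genes, S100a4 and S100a6 lie near each other on chromosome 3 of mm10, at 90603771 to 90606045 and 90612882 to 90624181, both on the plus strand. S100a4, also known as fibroblast-specific protein, binds myosin heavy chains and is linked to cell motility. No S100a4 read was found in any uninjured library, where 3 reads would give 9.38 to 35.3 FPKM. Exons of S100a4 overlap those of Gm42674 on the same strand, with 302 bases that are identical, so reads there could be counted for either gene or for neither. In injured SCs the level was 23.5, 29.7 and 68.6 FPKM for FoxM1fl/fl, compared with 168, 618 and 57.5 FPKM in FoxM1-cKO. Over the floor of the uninjured group the mean S100a4 level was at least 9.55-fold higher in FoxM1fl/fl and at least 27.2-fold higher in FoxM1-cKO SCs. Single libraries are less plain, since 23.5 and 29.7 FPKM lie below the 34.5 FPKM that 3 reads would give in FoxM1fl/fl uninjured 3. The lowest FoxM1-cKO value lay below the highest FoxM1fl/fl value, so the genotypes overlapped by a single library each.

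S100a6, which encodes calcyclin, had reads in every library, before injury as well as after it. It stood at 38.3, 53.7 and 51.1 FPKM (18, 27 and 7 reads) in the FoxM1fl/fl libraries before injury, compared with 651, 244 and 161 FPKM (87, 33 and 30 reads) in FoxM1-cKO. Injured SCs had 305, 371 and 331 FPKM in FoxM1fl/fl and 929, 386 and 595 FPKM in FoxM1-cKO libraries. All 3 FoxM1-cKO libraries were above all 3 FoxM1fl/fl libraries before injury, as for 3.69% of all genes tested, and again after it, as for 17.2%. The libraries overlapped in both after median-ratio scaling. The level in FoxM1fl/fl SCs was 7.03 times as high after injury as before, and that in FoxM1-cKO SCs 1.81 times as high, with overlap between injured and uninjured FoxM1-cKO libraries.

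S100a10 and S100a11 lie near each other on chromosome 3, at 93555080 to 93564643 and 93520488 to 93526287. S100a10, the partner of ANXA2, had 248, 184 and 142 FPKM in uninjured and 89.98, 125 and 20.9 FPKM in injured FoxM1fl/fl SCs. In FoxM1-cKO SCs it had 8.55, 236 and 251 FPKM before and 346, 217 and 187 FPKM after injury. It was the single one of the 10 genes that was lower in every injured than in every uninjured FoxM1fl/fl library, by 2.43-fold in the means, and this order held after median-ratio scaling and after quantile normalization. After injury all 3 FoxM1-cKO libraries were above all 3 FoxM1fl/fl ones, as for 17.2% of all genes tested.

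S100a11, whose protein pairs with ANXA1, had 22.8, 18.3 and 0 FPKM in FoxM1fl/fl libraries before injury, compared with 45.9, 34.0 and 0 FPKM in FoxM1-cKO. After injury it had 102, 145 and 47.4 FPKM in FoxM1fl/fl and 257, 23.1 and 253 FPKM in FoxM1-cKO SCs. These levels rest on 13 and 7 reads before injury and are uncertain, since transcripts of Gm12854 and Gm7665 match 297 bases of S100a11 at 99.0% and 98.7% identity. Those copies were listed at 0 in every uninjured library and at up to 24.8 FPKM and 14.7 FPKM after injury.

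Anxa1 encodes annexin A1, which limits inflammation and whose release is known from injured muscle. No Anxa1 read was found before injury in either genotype. After injury its level was nearly the same in the 3 FoxM1fl/fl libraries, at 109.5, 104.7 and 100.05 FPKM, and spread from 79.7 to 641 FPKM in the FoxM1-cKO libraries, with 209 FPKM in the remaining one. Over the floor of 3 reads in the uninjured group it was at least 82.8-fold higher in FoxM1fl/fl and at least 101-fold higher in FoxM1-cKO SCs.

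Anxa2 had the highest level of the 10 genes in 4 of 6 injured libraries. It stood at 1929, 1143 and 3599 FPKM in the FoxM1fl/fl libraries after injury, compared with 6287, 706 and 1563 FPKM in FoxM1-cKO. Before injury the FoxM1fl/fl libraries were far apart, at 243, 2.05 and 2323 FPKM (333, 3 and 926 reads), and the FoxM1-cKO libraries had 0, 25.4 and 38.7 FPKM. FoxM1fl/fl uninjured 1 is one of the libraries that follow a weighted sum, and its Anxa2 level was 0.992 times that sum. Without FoxM1fl/fl uninjured 3 the injured and uninjured FoxM1fl/fl libraries did not overlap for Anxa2, which brought the count of genes to 9. Exons of Anxa2 overlap the antisense gene Gm16144, and the sources used here do not say whether strand was used in counting.

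Anxa5 encodes annexin A5, which binds phosphatidylserine on the outer face of damaged membranes. It had 1 read before injury in each genotype (0, 0.8998 and 0 FPKM, and 0, 3.34 and 0 FPKM). The FoxM1fl/fl libraries after injury had 22.5, 29.7 and 4.46 FPKM, compared with 28.7, 12.97 and 651 FPKM in the FoxM1-cKO libraries. A single library, FoxM1-cKO injured 3, held 94.0% of the summed FoxM1-cKO level. The ratio of injured to uninjured reads over depth was 50.2 (95% counting interval 8.84 to 1999) in FoxM1fl/fl and 220.3 (39.5 to 8705) in FoxM1-cKO SCs.

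Anxa6, a large annexin with a doubled core, was the least abundant of the 10 genes after injury in 5 of 6 libraries. It was at 0 in every uninjured library and at 19.1, 26.9 and 0.885 FPKM in injured FoxM1fl/fl and 6.90, 50.8 and 13.6 FPKM in injured FoxM1-cKO SCs. The value of 0.885 FPKM is 2 reads. Over the uninjured floor the mean Anxa6 level was at least 18.4-fold and at least 11.5-fold higher in FoxM1fl/fl and FoxM1-cKO SCs. FoxM1fl/fl injured 3 itself, at 0.885 FPKM, was near that floor of 0.850 FPKM. It was also below the 2.30 FPKM that 1 read would give in FoxM1fl/fl uninjured 3, so this library alone shows no clear rise.

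Promoter sequence was available for 7 of the 10 genes from RefSeq (GRCm38.p6), and 4 are shown because they belong to the genes with the plainest difference in detection. Lgals3, S100a4 and Anxa1 had no read before injury and reads in every library after it, and S100a6 had reads in all 12 libraries. Each is the 250 bases before the annotated start, 5′ to 3′ on the strand of the gene, at chr14:47373610-47373859 on the plus strand for Lgals3, chr3:90603520-90603769 on the plus strand for S100a4, chr19:20390672-20390921 on the minus strand for Anxa1 and chr3:90612644-90612893 on the plus strand for S100a6. Capitals mark matches on either strand. The letters searched were TATAAA for the TATA box and TGACTCA together with TGAGTCA for the AP-1 element. For the forkhead element that FoxM1 binds they were CAAACAA together with CAAATAA, and TAAACAA together with TAAATAA.
Lgals3: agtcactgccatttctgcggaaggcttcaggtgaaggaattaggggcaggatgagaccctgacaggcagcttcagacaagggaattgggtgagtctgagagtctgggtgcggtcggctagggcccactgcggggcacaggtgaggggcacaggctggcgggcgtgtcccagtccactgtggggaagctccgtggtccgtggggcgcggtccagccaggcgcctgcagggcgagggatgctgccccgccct
S100a4: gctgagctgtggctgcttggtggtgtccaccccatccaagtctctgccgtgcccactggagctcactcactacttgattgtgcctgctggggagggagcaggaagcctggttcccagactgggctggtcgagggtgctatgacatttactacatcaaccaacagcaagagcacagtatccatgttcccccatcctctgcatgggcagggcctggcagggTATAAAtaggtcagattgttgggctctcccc
Anxa1: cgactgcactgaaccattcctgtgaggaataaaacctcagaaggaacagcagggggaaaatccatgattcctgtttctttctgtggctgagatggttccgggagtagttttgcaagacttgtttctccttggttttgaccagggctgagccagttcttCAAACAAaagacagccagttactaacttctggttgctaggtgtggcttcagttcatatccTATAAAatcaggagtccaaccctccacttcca
S100a6: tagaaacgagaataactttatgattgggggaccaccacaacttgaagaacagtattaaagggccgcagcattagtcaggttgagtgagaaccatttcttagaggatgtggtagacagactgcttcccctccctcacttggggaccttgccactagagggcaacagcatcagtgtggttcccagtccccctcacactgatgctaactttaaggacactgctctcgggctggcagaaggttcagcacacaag
S100a4 and Anxa1 each held TATAAA, at positions -31 and -32 from the start, as did Anxa2 at -17, and 12.4% of 32851 promoters of this length hold it. Anxa1 alone of the 7 held a forkhead form, CAAACAA at position -92, which 15.5% of all promoters hold in some form. TGAGTCA was found in Anxa2 at -95 and in S100a11 at -136 and -38, and the AP-1 element is in 4.46% of all promoters. The windows of Lgals3, S100a6 and Anxa5 held none of these letters. The motifs were chosen with these sequences known, and a match of letters describes the window and no more.

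**Figure D2:**
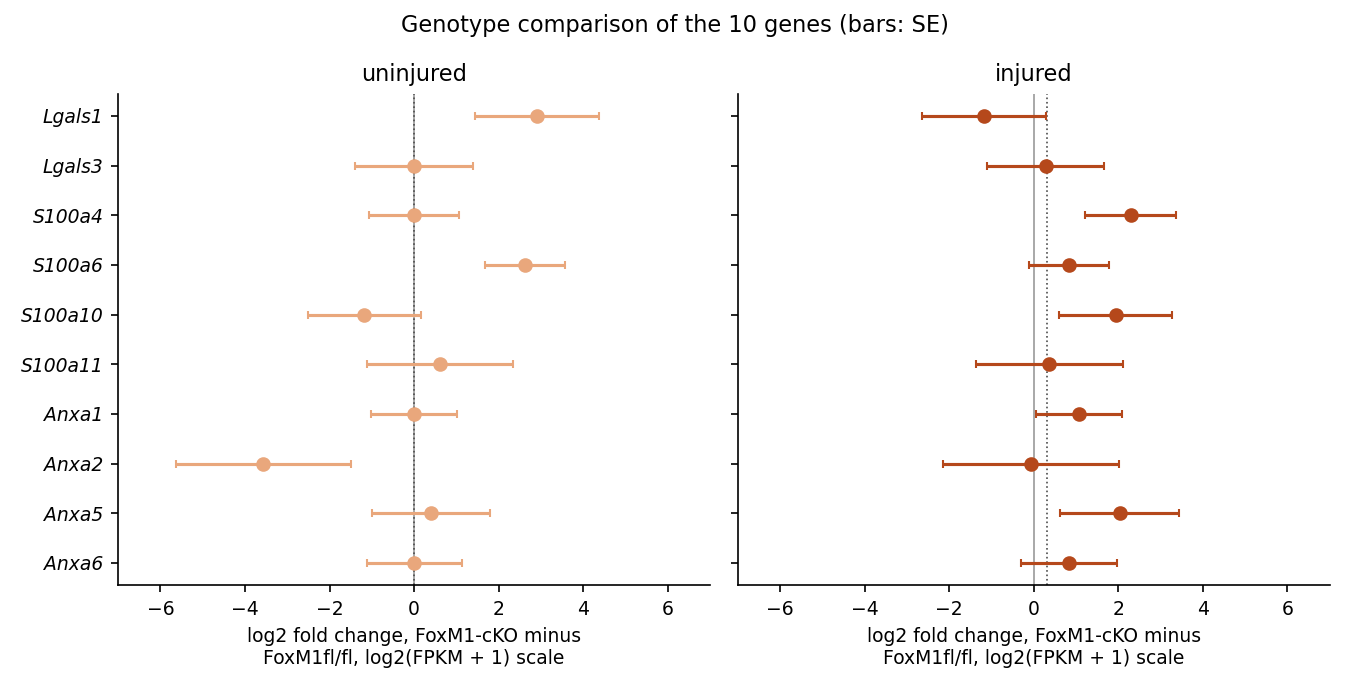
Genotype comparison of the 10 genes, as the log2 fold change of FoxM1-cKO minus FoxM1fl/fl SCs on the log2(FPKM + 1) scale with its SE from limma, in uninjured and injured SCs. The dotted line marks the median of all 4956 genes tested, 0 before and 0.32 after injury, and none of the 10 genes passed the test in either comparison.

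The genotypes were then compared to ask whether the loss of FoxM1 goes with other levels of these genes. Of the 10 genes, 0 were called in uninjured SCs, against a background of 1.53% of all genes, by limma at an adjusted p under 0.05. In injured SCs 0 of 10 were called, against a background of 7.81%, and for the difference of the genotype effect between injured and uninjured SCs 0 of 10, against 1.09%. At an unadjusted p under 0.05 the counts were 1, 0 and 0 of 10, against 18.9%, 23.1% and 21.7% of all genes. The median log2 fold change of the 10 genes was 0 before injury, as for all genes, and 0.83 after injury, beside 0.32 for all genes. Lgals3, S100a4, Anxa1 and Anxa6 had no read in either uninjured group, so before injury they gave no comparison.

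S100a6 had the smallest p before injury. Its mean level was 352 FPKM in FoxM1-cKO and 47.7 FPKM in FoxM1fl/fl SCs, a log2 fold change of 2.62 (SE 0.94, adjusted p = 0.172 from limma). All 3 FoxM1-cKO libraries were above all 3 FoxM1fl/fl libraries, as for 3.69% of all genes tested. After median-ratio scaling the log2 fold change was 1.23 (adjusted p = 0.676 from limma) and the libraries overlapped. After injury the log2 fold change was 0.84 (SE 0.94, adjusted p = 0.643 from limma), and the libraries did not overlap either, as for 17.2% of all genes, though they did after median-ratio scaling and after quantile normalization. None of the 10 genes was lower in all 3 FoxM1-cKO libraries, against 3.41% of all genes before and 5.87% after injury. Uninjured FoxM1-cKO libraries also held more from fibro-adipogenic markers, which summed to 1587 to 2080 FPKM against 377 to 507 FPKM. Myofibre markers summed to 44470 to 54691 FPKM against 4936 to 35064 FPKM. The fibro-adipogenic sum came mostly from Dcn, Col1a1 and Col3a1. Pdgfra was at 0, 0 and 0.614 FPKM against 0, 0 and 3.35 FPKM, and 0 of 7 fibro-adipogenic markers tested were called. Other lists were lower in FoxM1-cKO, with tendon markers at 209 to 466 FPKM against 586 to 1795 FPKM. Pericyte and smooth muscle markers were at 0 against 1.14 to 1565 FPKM. The part of these lists in the S100a6 level was not tested.

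Lgals1 gave a log2 fold change of 2.90 before injury (SE 1.47, adjusted p = 0.314 from limma), from means of 23.6 FPKM in FoxM1-cKO and 0.694 FPKM in FoxM1fl/fl SCs. This rests on 12 reads against 1, and the ratio of reads over depth was 29.2 with a 95% counting interval of 4.33 to 1249.8. Without FoxM1-cKO uninjured 1, which had no Lgals1 read, the log2 fold change was 4.62 and passed the test (adjusted p = 0.0358 from limma). That fit called 5.33% of all genes. The FoxM1-cKO libraries left in it are not free of each other. FoxM1-cKO uninjured 2 followed a weighted sum of libraries 1 and 3, with Lgals1 at 1.31 times that sum. After injury the log2 fold change was -1.17 (SE 1.47, adjusted p = 0.684 from limma), and the difference between these effects was -4.07 (SE 2.07, adjusted p = 0.272 from limma). Anxa2 had the lowest log2 fold change before injury, -3.56, with a wide error (SE 2.08, adjusted p = 0.417 from limma), and stood at -0.06 after injury. Before injury it was -6.21 without FoxM1fl/fl uninjured 2 (adjusted p = 0.0607 from limma), -1.43 without FoxM1fl/fl uninjured 3 and -1.89 without FoxM1-cKO uninjured 1.

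In injured SCs S100a4 had the highest log2 fold change, which was 2.29 (SE 1.07, adjusted p = 0.217 from limma), from means of 281 FPKM in FoxM1-cKO and 40.6 FPKM in FoxM1fl/fl SCs. It was 1.41 without FoxM1-cKO injured 2, where Anxa5 was higher at 3.14, and 3.11 without FoxM1-cKO injured 3. S100a10 followed the same direction in all 3 libraries, with means of 250 FPKM and 78.7 FPKM (log2 fold change 1.94, adjusted p = 0.412 from limma). Anxa5 had a log2 fold change of 2.03, which was 0.37 without FoxM1-cKO injured 3. The remaining genes lay between -0.06 and 1.07 in injured SCs, apart from Lgals1. With array weights, which give each library its own weight, 4 genes were called before injury and S100a4 after it, in a fit that did not reach its convergence tolerance and called 43.4% and 24.6% of all genes.

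**Figure D3:**
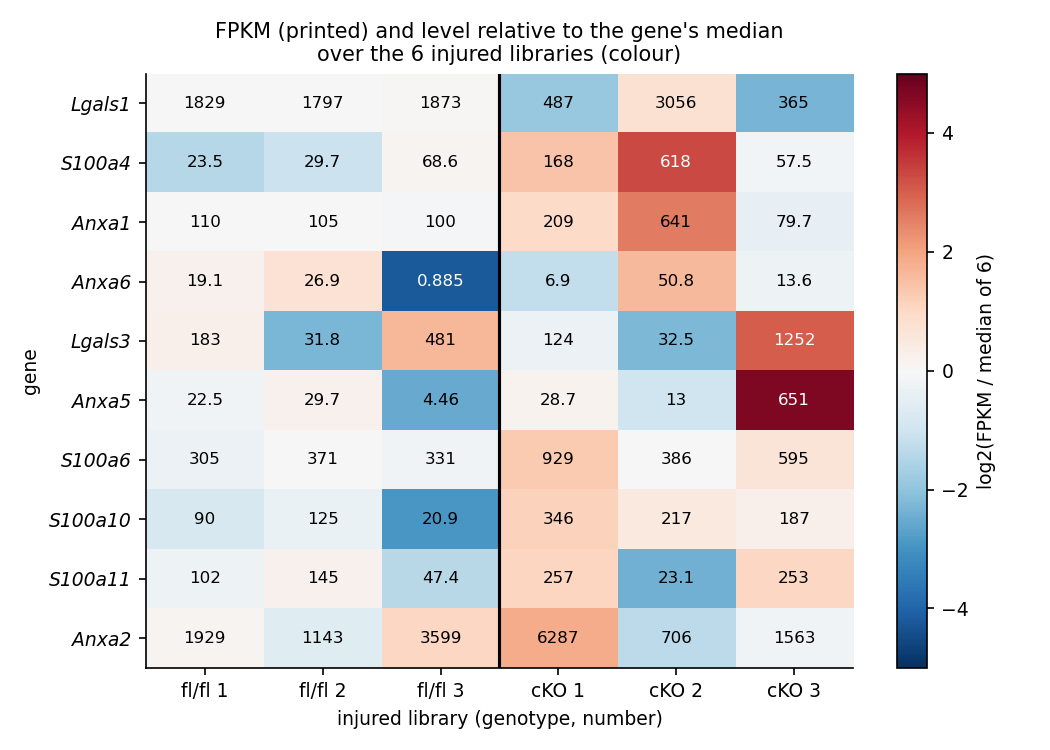
FPKM of the 10 genes in the 6 injured libraries (printed), coloured by the log2 ratio to the median of the 6 libraries for that gene. Libraries of FoxM1fl/fl are on the left and of FoxM1-cKO on the right of the line. Lgals1, Anxa1 and S100a6 were nearly even across the FoxM1fl/fl libraries, and in FoxM1-cKO the highest library was 2 for Lgals1, S100a4, Anxa1 and Anxa6, 3 for Lgals3 and Anxa5, and 1 for the other 4 genes.

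The spread between injured libraries differed from gene to gene. In FoxM1fl/fl SCs the highest and lowest library differed by 1.04-fold for Lgals1, 1.09-fold for Anxa1 and 1.22-fold for S100a6. Among the 485 genes with at least 20 FPKM in all 3 of these libraries, the median was 2.46-fold, and 0.619%, 2.06% and 8.04% of them had a smaller ratio than these genes. The spread of Lgals3 was 15.1-fold, and 92.8% of those genes had a smaller one. FoxM1fl/fl injured 1 followed 0.676 times library 2 plus 0.322 times library 3, and 9 of the 10 genes were within 1.5-fold of that sum there (S100a4 was at 0.557 times it), so these 3 libraries are not 3 free measurements of the spread.

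In FoxM1-cKO SCs the 10 genes did not peak in the same library. FoxM1-cKO injured 2 was highest for Lgals1, S100a4, Anxa1 and Anxa6 and held 68.9% to 78.2% of their summed level in that group. FoxM1-cKO injured 3 was highest for Lgals3 and Anxa5, with 88.9% and 94.0%. FoxM1-cKO injured 1 was highest for S100a6, S100a10, S100a11 and Anxa2, although S100a11 was nearly as high in library 3. Lgals1 spread 8.37-fold and Anxa1 8.04-fold, beside a median of 3.45-fold among the 584 genes with at least 20 FPKM in all 3 libraries.

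**Figure D4:**
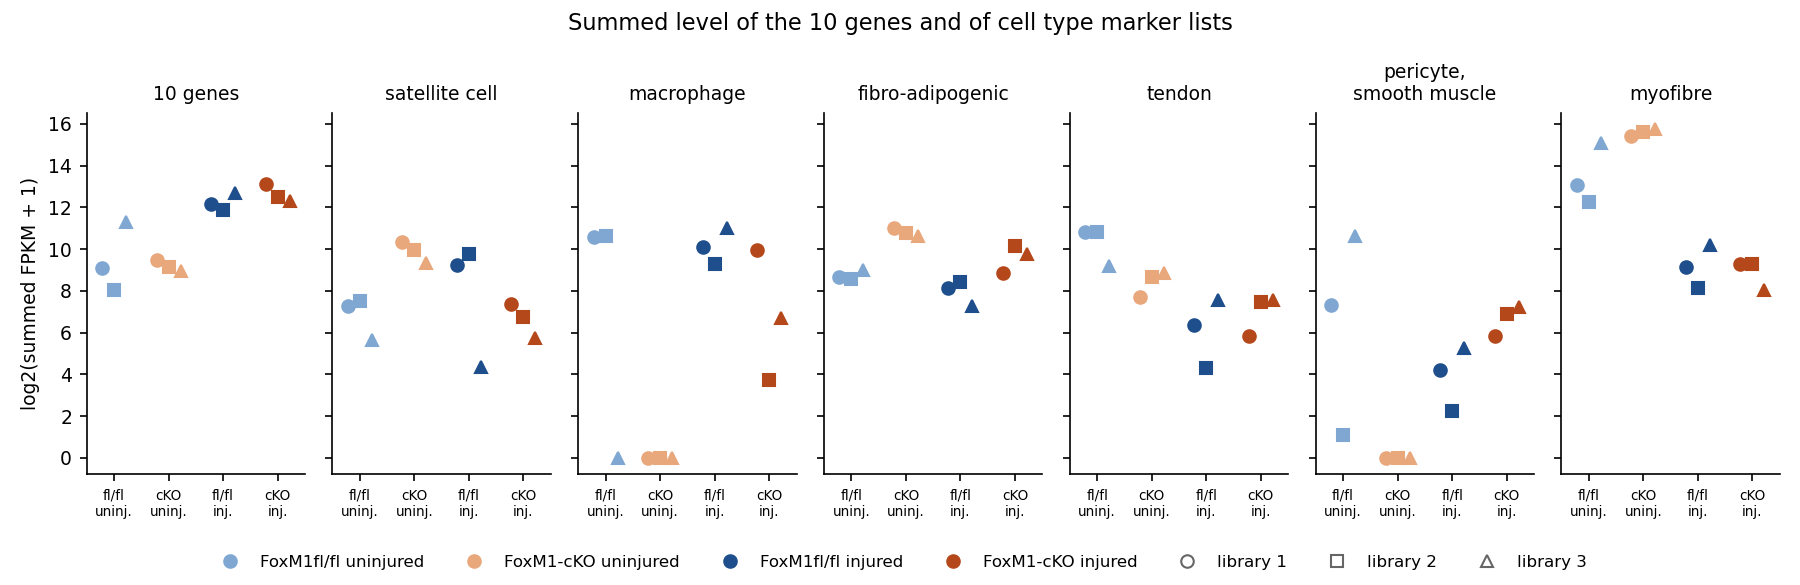
Summed level of the 10 genes and of 6 lists of cell type markers in the 12 libraries, as log2(summed FPKM + 1), with symbols as for single genes. Macrophage markers were at 0 in 4 of the 6 uninjured libraries and after injury they summed to 627 to 2056 FPKM in FoxM1fl/fl, compared with 12.4 to 988 FPKM in FoxM1-cKO.

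Several of the 10 genes are also made by cells other than SCs, so markers of those cells are given beside them. Of 12 macrophage markers, 4 to 7 stood above 0 after injury in a FoxM1fl/fl library and 4 to 5 in a FoxM1-cKO one, and Ptprc, which encodes the CD45 excluded in the sort, was at 0 in 5 of the 6 and at 0.103 FPKM in the other. The sum of the list was 1082, 627 and 2056 FPKM in FoxM1fl/fl and 988, 12.4 and 102 FPKM in FoxM1-cKO injured libraries. Lgals1, S100a4, Anxa1 and Anxa6 were highest in FoxM1-cKO injured 2. That library had the lowest sum of the list among the injured ones, at 12.4 FPKM. S100a9, a gene of neutrophils and monocytes that is not in the list, was at 107 FPKM there. The neutrophil markers summed to 0 in it. In that library 5 of the macrophage markers stood above 0, and Fcer1g, Tyrobp and Ptprc were higher there than in the other FoxM1-cKO injured libraries, at 5.19, 1.98 and 0.103 FPKM, while Cd14 and Lyz2 were lower there than in the others. Lgals3 followed the same order as Lyz2 in injured FoxM1fl/fl SCs (Lyz2 at 454, 30.2 and 1330 FPKM) and another order in FoxM1-cKO SCs (621, 4.04 and 99.9 FPKM). Cd14, Tyrobp, C1qb and C1qc had the order of Lyz2 in injured FoxM1fl/fl SCs as well. Fcer1g had the reverse order there (53.7, 98.1 and 1.61 FPKM), and Csf1r was above 0 in library 1 alone. FoxM1fl/fl injured 1 followed a weighted sum of the other 2 libraries, so its middle place in such an order is not a free observation. In uninjured SCs the list summed to 1511 and 1612 FPKM in FoxM1fl/fl libraries 1 and 2, from Fcer1g and Ptprc, with no read of Lgals3, S100a4 or Anxa1 there. Of 5 macrophage markers tested 1 was called in injured SCs, against a background of 7.81%. Tyrobp, a signalling adaptor of myeloid cells, was lower in injured FoxM1-cKO SCs, at 0, 1.98 and 0 FPKM against 158, 133 and 170 FPKM (log2 fold change -6.74, adjusted p = 0.00188 from limma).

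Of 7 fibro-adipogenic markers tested, 3 (Dpt, Lum and Pdgfra) were called higher in injured FoxM1-cKO SCs and 0 lower by limma, against a background of 7.81%. The other 4 did not pass. These calls and that of Tyrobp depend on the libraries used. Without the 3 libraries that followed a weighted sum, a fit with fewer libraries, 0 of all genes were called. All 8 fibro-adipogenic markers stood above 0 in at least 1 injured library. Their sum was 467, 1131 and 878 FPKM in FoxM1-cKO against 280, 346 and 152 FPKM in FoxM1fl/fl injured libraries. Pdgfra, the defining receptor of fibro-adipogenic progenitors, had 45.4, 196 and 13.6 FPKM in injured FoxM1-cKO and at most 0.342 FPKM in injured FoxM1fl/fl SCs (log2 fold change 5.48, adjusted p = 0.00772 from limma). Ly6a, which encodes the Sca1 excluded in the sort, was at 0, 0 and 4.57 FPKM in injured FoxM1-cKO and 11.4, 14.7 and 1.15 FPKM in the FoxM1fl/fl ones, so that the genotypes overlapped. Within injured FoxM1-cKO SCs the markers did not peak in 1 library. Pdgfra, Lum, Dcn and Cd248 were highest in library 2, Col1a1, Col3a1 and Ly6a in 3 and Dpt in 1. Whether these markers have a part in the levels of the 10 genes was not tested. In other lists, 1 of 3 tendon markers tested (Tnmd) was called higher in injured FoxM1-cKO SCs (log2 fold change 4.23, adjusted p = 0.0266 from limma). Before injury 1 of 11 myofibre markers (Tcap) was called higher (3.32, adjusted p = 0.0172 from limma). For the difference, Msc, 1 of 7 SC markers (-13.7, adjusted p = 0.0432 from limma), and Tyrobp (-6.74, adjusted p = 0.0369 from limma) were called.

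The pairs that work together as proteins were then set side by side. After injury Anxa2 was 9.14 to 172 times as high as S100a10 in FoxM1fl/fl SCs, compared with 3.25 to 18.2 times in FoxM1-cKO SCs. Before injury the ratio of Anxa2 to S100a10 was 0.981, 0.0111 and 16.4 in FoxM1fl/fl and 0, 0.107 and 0.154 in FoxM1-cKO libraries. S100a10 thus stood above Anxa2 in 5 of 6 uninjured libraries and below it in all 6 injured ones. Over the 12 libraries, Pearson's r between the log2 levels was 0.27 for Anxa2 and S100a10 and 0.62 for Anxa1 and S100a11, as a description of libraries that also share their depth and injury state.

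**Figure D5:**
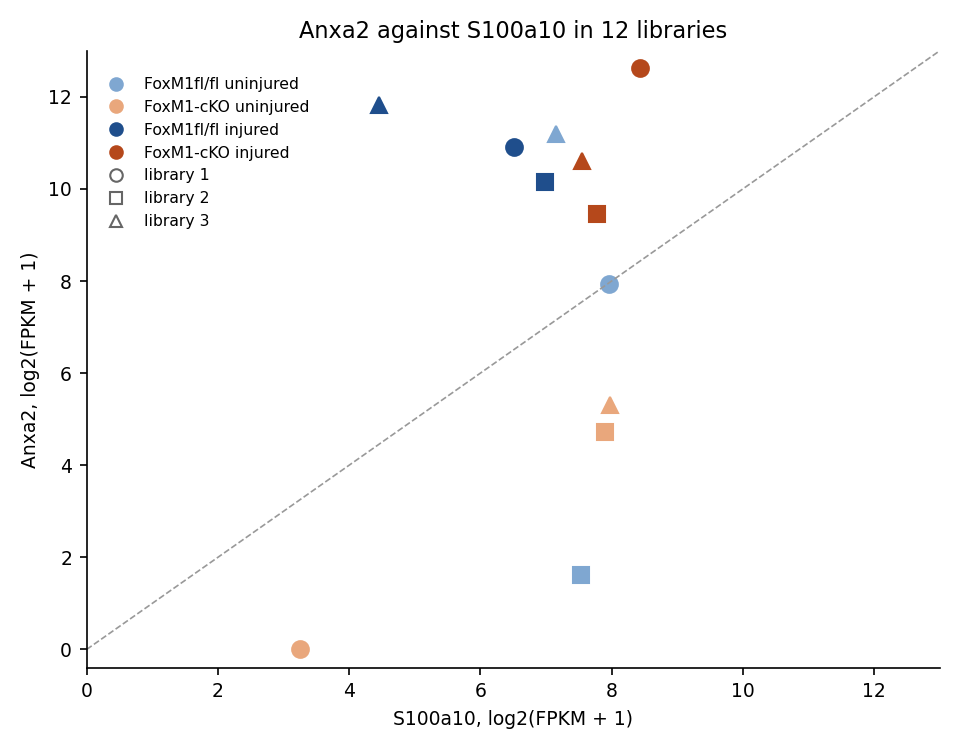
Anxa2 against its partner S100a10 in the 12 libraries, both as log2(FPKM + 1), with the dashed line at equal levels. All 6 injured libraries lie above the line, and of the uninjured libraries only FoxM1fl/fl uninjured 3 does.

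Among other members of the families the galectins were nearly absent, while some S100 and annexin genes were present, a few at high levels. Of 10 further galectin genes 4 were listed and 0 passed the filter, and their sum reached at most 2.08 FPKM in any library. Of 12 further S100 genes 4 were listed and 2 tested, and of 8 further annexin genes 6 were listed and 3 tested, with 0 called by limma in any genotype comparison. The following were chosen after their values were seen. Anxa7, which encodes a calcium-dependent membrane fusion protein, was at 0 in all uninjured libraries and at 152, 29.2 and 394 FPKM in injured FoxM1fl/fl and 114, 286 and 129 FPKM in injured FoxM1-cKO SCs. S100a16 stood at 278, 406 and 1.96 FPKM in the FoxM1fl/fl libraries after injury, where library 3 stood apart, and ran from 5.24 to 48.2 FPKM in FoxM1-cKO. Anxa3 was at 0, 4830 and 8997 FPKM in the FoxM1-cKO libraries before injury, with no read in their 3 controls, and Anxa9 was at 2474, 2799 and 0 FPKM in the controls before injury, with 0 in every other library. S100a9, a gene of neutrophils and monocytes, was at 107 FPKM in FoxM1-cKO injured 2 and at 0 in the other 11 libraries.

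Of 13 genes that act with annexins in membrane repair (such as myoferlin, calpains and ESCRT subunits), 11 were listed and 8 tested, and 0 were called by limma in any genotype comparison. Their median log2 fold change in injured SCs was 1.49, beside 0.32 for all genes. After injury 5 of the 8 stood higher in all FoxM1fl/fl libraries and 7 of the 8 in all FoxM1-cKO libraries, against the backgrounds of 33.2% and 44.8%. Capns1, Myof, Pdcd6 and Sri were at 0 in every uninjured library and so passed the filter through injured libraries alone. Neither count can therefore be read as an excess over its background. Pdcd6, a calcium-binding adaptor of ESCRT proteins chosen after its values were seen, was at 0 before injury and at 55.0, 27.2 and 92.1 FPKM in injured FoxM1fl/fl and 10.2, 140.4 and 0.705 FPKM in injured FoxM1-cKO SCs. Of 7 genes of the plasminogen system, in which the ANXA2 tetramer acts as a receptor, all 7 were listed and 3 tested, with 0 called.

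The genes whose levels most resembled that of Lgals1 over the 12 libraries were Psmd8 (a proteasome subunit), Ywhaq (a 14-3-3 protein), Hipk1 (a protein kinase), Cox7a2l (a factor of respiratory supercomplexes) and Kars (the lysyl-tRNA synthetase), with Pearson's r of 0.991, 0.974, 0.974, 0.963 and 0.960 on the log2 scale. Psmd8 stood at 1.68, 0 and 0 FPKM in uninjured FoxM1fl/fl and 0, 17.5 and 52.9 FPKM in uninjured FoxM1-cKO SCs, and at 392 to 716 FPKM after injury. Among the other 9 genes, Anxa1 (r = 0.911) and S100a4 (r = 0.871) were nearest to Lgals1 and S100a10 (r = 0.0946) was farthest. An r of 0.9 or more with Lgals1 was found for 62 of 4955 genes, or 1.25%, and these libraries share the injury state and the depth that goes with it.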

How the data were processed

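RNA of about 800 sorted SCs for each library was made into cDNA libraries with a kit for single-cell amounts and read as 150-bp paired ends. Per the methods and the labels, the authors used Bowtie 0.12.9 for alignment to mm10, Cufflinks 2.1.1 for FPKM and HTSeq for counts. The deposited FPKM, 1 table of 13775 genes by 12 libraries, were used here, with groups from the labels.

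Limma 3.58.1 (R 4.3.3) fitted 4 group means to log2(FPKM + 1) in all 12 libraries, over the 4956 genes that reached 1 FPKM in 3 or more libraries, with a mean-variance trend. FPKM are not counts, so the count test of the study was not used. A gene was called at a two-sided adjusted p under 0.05 (Benjamini-Hochberg over all genes tested). Adding 1 to the FPKM understates the change of low genes. Reads were recovered from FPKM and the longest GENCODE M21 transcript. In each library 94.9% to 97.5% of values under 20 reads were whole within 0.02 reads plus 0.1%, so a value of 0 is read against a floor of 3 reads. The 10 genes and all lists were chosen with earlier results of these data known. All 10 are named, with genes of their lists that passed the test and the 5 genes most like Lgals1. Any other is named as chosen after its values were seen. Shared sequence was sought with BLAST 2.17.0 (at least 95% identity over 150 bases). Other steps used Python 3.11.15 with scipy 1.17.1, pandas 2.3.3, matplotlib 3.10.9 and numpy 2.4.6. The alternatives were other pseudocounts, filters and scalings, array weights, a fit without the trend, a fit of the 2 groups compared, a replicate block, and libraries left out. Some SC genes were not analysed here.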

Additional observations from a re-analysis of the deposited data

How the results depend on the processing

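No member passed the test in the genotype comparisons under most alternatives, the exceptions being array weights and 1 library left out. With array weights 4 genes (Lgals1, S100a6, Anxa2 and Anxa5) were called before injury, 1 (S100a4) after injury and 1 (S100a4) for the difference, in fits that called 43.4%, 24.6% and 40.7% of all genes. With each library left out in turn the counts were 0 to 1, 0 to 0 and 0 to 0, and Lgals1 before injury was the 1, without FoxM1-cKO uninjured 1. The count of genes higher in all injured libraries was 8 to 9 in FoxM1fl/fl and 7 to 8 in FoxM1-cKO SCs with a library left out, and 5 in FoxM1fl/fl SCs after median-ratio scaling (30.0% of all genes). The replicate block left 0 of the 10 genes called in each comparison and took the calls over all genes from 76 to 51, from 387 to 313 and from 54 to 0. Without the 3 libraries that followed a weighted sum, a fit with fewer libraries, 0 of all genes were called in each comparison. A fit of the 2 groups compared called 0 genes before injury and 2 after it. With the stricter filter 106, 3 and 12 genes were called. Deviations of same-numbered libraries correlated by at most 0.0545, so no pairing by number was seen. This check cannot exclude pairing, since some libraries followed a weighted sum of others in their group. Of 674 values of single genes under the alternatives 34 turned in direction, none of them past the test, and the cause was not tested. Before injury S100a11 gave -0.77 and Anxa5 -0.30 after median-ratio scaling, and Anxa5 -0.46 with the 3 libraries that resemble sums of others left out. After injury Lgals3 gave -0.013 after median-ratio scaling and -0.16 with array weights, values it also had for the difference, since it had no read before injury. Anxa6 gave -0.11 with array weights in both. For the difference S100a11 gave 0.84 after median-ratio scaling and Anxa5 -0.35 with array weights. With a library left out, log2 fold changes before injury ran from -1.98 to 0.38 for S100a10, -0.86 to 2.39 for S100a11 and -0.31 to 0.75 for Anxa5. After injury they ran from -1.14 to 1.47 for Lgals3, -0.20 to 1.51 for S100a11, -0.92 to 0.65 for Anxa2 and -0.38 to 1.56 for Anxa6. For the difference they ran from -1.14 to 1.47 for Lgals3, -2.02 to 1.24 for S100a11, -0.030 to 2.74 for Anxa5 and -0.38 to 1.56 for Anxa6. The median of all genes after injury was 0.32, 0.12 after median-ratio scaling and 0.02 after quantile normalization. Calls over all genes split 43 higher to 33 lower before injury (37 to 73 after median-ratio scaling) and 255 to 132 after injury (74 to 89 after quantile normalization). The depth of the uninjured libraries limits every level there, since 3 reads of S100a4 stand for 9.38 FPKM or more.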
